A study of Mus musculus with 4 samples.

Results

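Mueller cells are the main glia of the retina. The 10 genes described here cover their clearance of glutamate, potassium and water, their conversion of carbon dioxide to bicarbonate, and markers of the cell. The genes Glul, Slc1a3, Kcnj10, Aqp4, Car14, Car2, Sox9, Sox2, Dkk3 and Crym were taken by name, and all 10 were found among 56493 genes of the deposited count table. RNA was sequenced from retinal cells of wild-type mice that had been sorted by fluorescence and carry the label RGC, for retinal ganglion cell. An AAV2 vector had been injected into the vitreous about a month before the optic nerve was crushed, an injury to the axons of ganglion cells. It was AAV2-CrAT in 2 libraries, to overexpress the enzyme carnitine acetyltransferase, and AAV2-MCS in the other 2 libraries. All 4 libraries came from wild-type retinas with a crushed nerve, and all 4 titles carry NCd8, which they do not spell out. It may name a day after the nerve crush. The labels do not give the age of the mice, the promoter of the vector, the meaning of MCS or the gate of the sort. Nor do they say whether replicates were separate animals. The spread behind each p-value is that of these libraries and could be technical.

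Mueller cells span the retina and touch every class of its neurons. They take up the glutamate that neurons release and turn it into glutamine, carry off potassium and water through channels in their endfeet, and convert the carbon dioxide of neuronal metabolism to bicarbonate. Loss of glutamine synthetase and of the inward rectifier potassium channel is a known part of the response of Mueller cells to retinal injury. The transcription factors SOX9 and SOX2 are kept by Mueller cells from the progenitors they derive from.

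The libraries held 24494253 to 27097438 counts, and the 10 genes had between 55 and 104807 counts in a library and all passed the filter on low counts. The sort did not leave ganglion cells alone. The rod gene Gnat1 was at 4421 to 10230 CPM (counts scaled to the depth of each library), while the ganglion cell gene Rbpms was at 2.75 to 8.58 CPM. Pou4f1 had 0 counts in CrAT replicate 1, which allows up to 0.122 CPM, and 0.040 to 0.754 CPM in the other libraries. Summed over 18 ganglion cell markers, replicates 1 and 2 were at 270 and 587.5 CPM with CrAT, against 198 and 459 CPM with MCS. Replicate 1 of both groups held more rod transcripts than replicate 2, with 51730 and 50410 CPM summed over 12 rod markers against 27940 and 29660 CPM. Markers of Mueller glia other than the 10 genes summed to 15190 to 28440 CPM over 24 genes. In such mixed samples fewer Mueller cells and less RNA per Mueller cell cannot be told apart.

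The promoters of these genes were compared for sequence motifs, because several of the genes were lower together in the CrAT libraries and because NFI factors, SOX factors, homeodomain factors and the Notch effector RBPJ act in Mueller cells. RefSeq windows on GRCm38.p6 were at hand for 5 of the 10 genes. The 250 bases before the start of transcription are printed for 3 of those whose CrAT values were each lower than either MCS value, and for Slc1a3, whose groups overlapped. Bases past each start were also sought in annotated transcripts of the gene. They were in 1 transcript of Glul, 1 of Kcnj10 and 3 of Car14, but in 0 of Slc1a3 and 0 of Sox2. The starts used for Slc1a3 and Sox2 were thus not borne out by this check. Capitals mark the core TTGGC of an NFI site, which reads GCCAA when it lies on the opposite strand.
Glul, chr1:153899679-153899928, plus strand: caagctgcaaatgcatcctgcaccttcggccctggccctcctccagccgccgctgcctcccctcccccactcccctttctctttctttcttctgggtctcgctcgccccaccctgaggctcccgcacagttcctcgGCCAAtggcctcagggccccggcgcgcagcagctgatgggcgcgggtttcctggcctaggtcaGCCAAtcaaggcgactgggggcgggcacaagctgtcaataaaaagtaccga
Car14, chr3:95904686-95904935, minus strand: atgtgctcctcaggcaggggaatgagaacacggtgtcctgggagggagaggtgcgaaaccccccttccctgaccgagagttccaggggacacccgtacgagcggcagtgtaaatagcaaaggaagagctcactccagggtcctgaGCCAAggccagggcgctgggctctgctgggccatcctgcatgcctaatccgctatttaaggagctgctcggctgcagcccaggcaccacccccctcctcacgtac
Kcnj10, chr1:172340960-172341209, plus strand: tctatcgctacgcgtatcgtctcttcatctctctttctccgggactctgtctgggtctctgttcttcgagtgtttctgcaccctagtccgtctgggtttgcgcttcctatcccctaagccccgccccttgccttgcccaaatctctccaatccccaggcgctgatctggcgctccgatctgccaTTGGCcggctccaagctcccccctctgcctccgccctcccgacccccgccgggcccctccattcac
Slc1a3, chr15:8710808-8711057, minus strand: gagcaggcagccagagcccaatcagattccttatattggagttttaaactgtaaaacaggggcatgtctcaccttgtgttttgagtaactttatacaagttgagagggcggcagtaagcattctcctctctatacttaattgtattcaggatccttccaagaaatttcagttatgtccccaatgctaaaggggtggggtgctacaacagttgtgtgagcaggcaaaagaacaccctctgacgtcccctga

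This core occurred in the Glul window starting 114 and 51 bases before the start, once in Car14 at 105 bases, once in Kcnj10 at 66 bases and once in Sox2 at 45 bases. No match lay in the Slc1a3 window, whose start, like that of Sox2, was not borne out by the transcripts. On either strand, 41.5% of all 32851 windows of this length hold it, beside 4 of these 5. In Glul, Kcnj10 and Sox2 it overlaps a CCAAT box (letters CCAAT, found in 33.8% of all windows). The letters AACAAT of a SOX site, TAATTA of a homeodomain site and TGGGAA of an RBPJ site were searched on both strands and were in none of the 5 windows. They occur in 9.4%, 4.8% and 21.6% of all windows. G and C made up 62.0% to 72.0% of the bases in Glul, Car14, Kcnj10 and Sox2 and 44.8% in Slc1a3, against a median of 52.4% over all windows.

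Compared between genes on the FPKM scale (which divides counts by exon length and depth), the 10 genes covered a wide range of levels. Dkk3 had the highest mean over the 4 libraries, 903 FPKM, followed by Car2 with 757, Glul with 307, Car14 with 202, Crym with 193, Slc1a3 with 66.2, Aqp4 with 53.5, Sox9 with 28.4, Kcnj10 with 6.41 and Sox2 with 3.13 FPKM. The values of neighbours in this order overlapped over the 4 libraries except at 3 steps, from Car2 to Glul, from Crym to Slc1a3 and from Sox9 to Kcnj10. The potassium channel gene was thus a low transcript here beside the water channel gene, at 2.33 to 9.08 FPKM against 31.1 to 95.2 FPKM.

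The groups parted in 5 of the 10 genes. For Glul, Kcnj10, Car14, Sox9 and Sox2 the 2 CrAT libraries were each lower than either MCS library, and in none of the 10 genes were they each higher. Of all genes tested, 16.6% had both CrAT libraries below and 15% had both above. A log2 fold change below 0 was found in 8 of the 10, against 49.4% of all genes, and the median was -0.73 against 0.01 for all genes tested. None of the 10 passed edgeR's quasi-likelihood test at an adjusted p of 0.05, and neither did any of the 19638 genes tested (0% called; 815 had an unadjusted p under 0.05 and DESeq2 called 54). Without adjustment, 3 of the 10 had a p under 0.05 and were lower in CrAT, against 2.87% of all genes. DESeq2 called 0.107% of genes as lower in CrAT, and none of the 10 was among them. The count of 8 was 5 without MCS replicate 1, and the count of 3 became 0 when CrAT replicate 2 was left out and 5 when CrAT replicate 1 was.

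**Figure D1:**
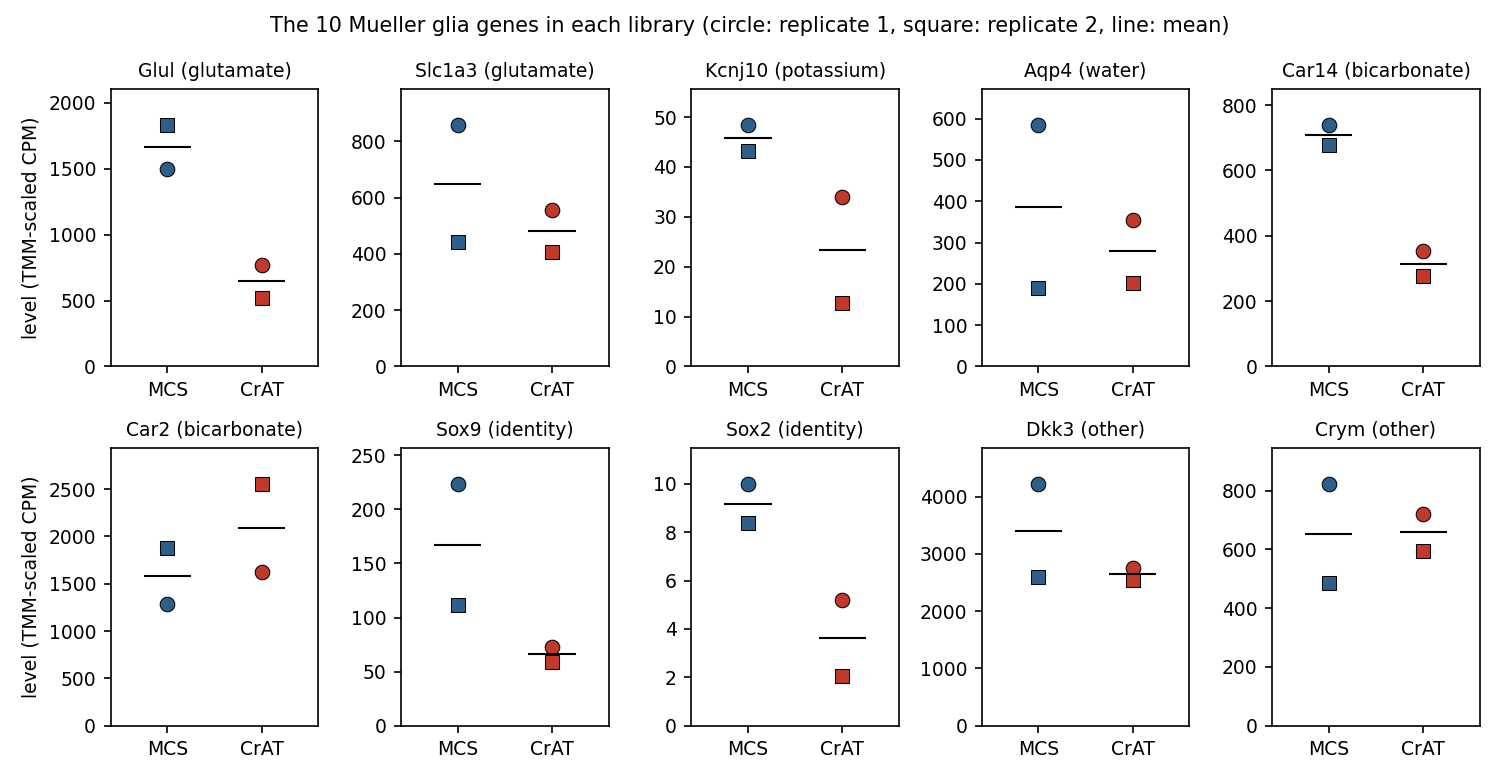
Level of each of the 10 genes in TMM-scaled CPM on a linear axis from 0, with a point per library and a line at the mean of each group of 2. Both CrAT points lie below both MCS points for Glul, Kcnj10, Car14, Sox9 and Sox2, and the groups overlap for the other 5 genes.

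Glutamate handling showed a lower level of the enzyme and overlapping levels of the transporter. Glul (ENSMUSG00000026473) encodes glutamine synthetase, which joins ammonia to glutamate and in the retina is made mainly by Mueller cells. It was at 767 and 522 CPM in CrAT replicates 1 and 2 and at 1496 and 1831 CPM in MCS replicates 1 and 2. The higher CrAT library was thus well below the lower MCS library. This was a log2 fold change of -1.37 (SE 0.35), which leaves 38.8% of the MCS level, with an unadjusted p of 0.00714 and an adjusted p of 1 in edgeR's quasi-likelihood test and an adjusted p of 0.0687 in DESeq2. With single libraries left out it ranged from -1.67 to -1.10. The gene lies on chromosome 1 from 153775690 to 153785469 on the plus strand in the table's coordinates, for which no build is named. The Glul promoter window on GRCm38.p6 starts at 153899679, past that end. Gene coordinates here are thus on another build than the promoter windows and cannot be set beside them. Its exons share 116 bases with Teddm2 on the opposite strand and 93 bases with the microRNA gene Mir8114, and the library kit does not mark strand, so a part of the reads cannot be assigned to one of them.

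Slc1a3 (ENSMUSG00000005360; chromosome 15, 8663608 to 8740248, minus strand) encodes GLAST, the main glutamate transporter of Mueller cells. Its level was 555 and 406 CPM with CrAT, against 857 and 441 CPM with MCS replicates 1 and 2. Only MCS replicate 1 stood above the rest, and the groups overlapped. Its log2 fold change of -0.43 (SE 0.41; edgeR adjusted p = 1) was 0.13 without MCS replicate 1, so its direction rested on that library.

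Among 13 other genes of glutamate uptake and glutamine exchange, 12 were tested. Of these 4 had a log2 fold change above 0 and 8 below, against 49.4% of all genes below. Their median was -0.26, which moved to -0.08 when CrAT replicate 2 was left out and to -0.14 when MCS replicate 1 was. None passed over all genes in edgeR or DESeq2. The 2 genes with the smallest p had higher values in CrAT. Slc1a1, the neuronal glutamate transporter, was at 42.8 and 84.1 CPM with CrAT, against 25.2 and 33.9 CPM with MCS (log2 fold change 1.10, SE 0.41). Got1, the cytosolic aspartate aminotransferase, which interconverts glutamate and oxaloacetate, was at 639 and 883 CPM against 343 and 503 CPM. Slc38a3, which exports glutamine from glia, overlapped between the groups, at 518 and 326 CPM against 492 and 547 CPM. Whether the exporter and the enzyme differ in their fold change was not tested.

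In potassium and water handling the groups parted for the potassium channel gene and overlapped for the water channel gene. Kcnj10 (ENSMUSG00000044708; chromosome 1, 172168777 to 172201652, plus strand) encodes the inward rectifier channel through which Mueller cells pass potassium. It had 33.9 and 12.7 CPM with CrAT, against 48.4 and 43.2 CPM with MCS replicates 1 and 2. Both CrAT libraries were below, but they differed from each other more than CrAT replicate 1 differed from MCS. The log2 fold change was -0.98 (SE 0.50; edgeR unadjusted p = 0.0948, adjusted p = 1), and leaving out CrAT replicate 2 gave -0.42, leaving out CrAT replicate 1 gave -1.85.

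Aqp4 (ENSMUSG00000024411; chromosome 18, 15522553 to 15544039, minus strand) encodes the water channel that sits beside this potassium channel in the endfeet. It was at 355 and 203 CPM with CrAT, against 584 and 190 CPM with MCS. MCS held both the highest and the lowest value. Its log2 fold change of -0.47 (SE 0.58; edgeR adjusted p = 1) was 0.56 without MCS replicate 1.

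Of 17 other genes for potassium channels, pumps and the dystrophin complex that anchors the channels, 15 were tested. A log2 fold change below 0 was found in 13, against 49.4% of all genes, with a median of -0.69. Both CrAT libraries were below both MCS libraries in 7, against 16.6% of all genes. No gene of the list passed over all genes in edgeR or DESeq2. In edgeR 3 had an unadjusted p under 0.05, all lower in CrAT, against 2.87% of all genes. Mlc1, a membrane protein of perivascular glial endfeet, was at 274 and 255 CPM with CrAT, against 578 and 564 CPM with MCS. These pairs lay close within each group and far apart between groups, with a log2 fold change of -1.11 (SE 0.29; edgeR unadjusted p = 0.00737, adjusted p = 1). Its binding partner Hepacam was at 3.44 and 7.51 CPM against 11.5 and 14.1 CPM. The pump subunit Atp1b2, the most abundant of the list in CPM, overlapped between groups, at 1040 and 934 CPM against 1310 and 758 CPM. The median of the list was -0.05 without MCS replicate 1, where the syntrophin Sntb1 had 61.5 CPM against 11.5 to 20.3 CPM in the other libraries.

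Of the carbonic anhydrases, which interconvert carbon dioxide and bicarbonate, the groups parted in 1 and overlapped in the other. Car14 (ENSMUSG00000038526; chromosome 3, 95805080 to 95812003, minus strand) encodes the membrane-bound form on the surface of Mueller cells. It was at 354 and 276 CPM with CrAT, against 739 and 678 CPM with MCS replicates 1 and 2, with close values within each group. That is a fold change of -1.17 on the log2 scale (SE 0.31), or 44.5% of the MCS level, with an unadjusted p of 0.00807 and an adjusted p of 1 in edgeR and an adjusted p of 0.138 in DESeq2. It ranged from -1.36 to -0.98 with single libraries left out. Its exons share 445 bases with Aph1a on the opposite strand, a gene counted 2193 and 2117 times with CrAT and 4072 and 5168 times with MCS, beside 8449 and 7314 against 18365 and 18707 counts for Car14. How reads of the shared bases were divided is not given in the sources used here.

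Car2 (ENSMUSG00000027562; chromosome 3, 14951333 to 14965830, plus strand) encodes the cytosolic form, which is not specific to Mueller cells. It was at 1625 and 2550 CPM with CrAT, against 1286 and 1880 CPM with MCS. In each group replicate 2 was the higher, and the groups overlapped. The log2 fold change was 0.40 (SE 0.38; edgeR adjusted p = 1), the highest of the 10 genes, and it was 0.06 without CrAT replicate 2. Summed amacrine markers were ordered by replicate number in the same way, at 991 and 2865 CPM with CrAT, against 1149 and 1932 CPM with MCS over 10 genes, and their part in the Car2 values was not tested. Both carbonic anhydrases are also made by the retinal pigment epithelium, whose defining gene Rpe65 had 0 counts in all 4 libraries, which allows a level of up to 0.111 to 0.122 CPM of the unscaled totals. Of 10 markers of that epithelium 5 were tested, and they summed to 45.4 to 67.5 CPM, with Rdh5 at 28.0 to 47.7 CPM and Ttr at 6.76 to 15.4 CPM, both with overlapping groups. Best1 was lower in both CrAT libraries, at 1.13 and 1.43 CPM against 2.90 and 5.18 CPM (edgeR unadjusted p = 0.0225, adjusted p = 1). The median of these 5 was -0.45 and ranged from -1.49 without CrAT replicate 1 to 0.16 without CrAT replicate 2, and their part in the values of both carbonic anhydrases was not tested.

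Of 15 other genes for bicarbonate, proton and lactate handling, 13 were tested. Of these 10 had a log2 fold change below 0, against 49.4% of all genes, and 3 above. Their median was -0.29, and -0.06 without MCS replicate 1. No gene of the list had an unadjusted p under 0.05 in edgeR, and none passed in DESeq2. Slc4a10, a sodium-coupled bicarbonate transporter, was at 190 and 164 CPM with CrAT, against 123 and 53.5 CPM with MCS. The scaffold gene Nherf1 was at 51.5 and 44.4 CPM against 70.7 and 69.5 CPM. Basigin (Bsg), the partner of lactate transporters, was at 1193 and 1232 CPM against 1592 and 1559 CPM (log2 fold change -0.38, SE 0.30). The lactate transporter gene Slc16a1 overlapped, at 150.3 and 113 CPM against 269 and 135 CPM.

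The identity genes Sox9 and Sox2 were at lower levels in both CrAT libraries. Sox9 (ENSMUSG00000000567; chromosome 11, 112673050 to 112678586, plus strand), a transcription factor of Mueller cells and astrocytes in the adult retina, was at 72.6 and 59.1 CPM with CrAT, against 223 and 111 CPM with MCS replicates 1 and 2. MCS replicate 1 was well above its partner, and the lower MCS library was still above both CrAT libraries. The log2 fold change of -1.34 (SE 0.40; edgeR unadjusted p = 0.0148, adjusted p = 1) was -0.75 without MCS replicate 1.

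Sox2 (ENSMUSG00000074637; chromosome 3, 34704554 to 34706610, plus strand), a factor of neural progenitors that Mueller cells, astrocytes and some amacrine cells retain, rested on few counts. Its counts were 124 and 55 with CrAT and 248 and 231 with MCS, or 5.19 and 2.07 CPM against 9.97 and 8.37 CPM. All CrAT values were below all MCS values, with a log2 fold change of -1.34 (SE 0.55; edgeR unadjusted p = 0.0510, adjusted p = 1). Leaving out CrAT replicate 1 gave -2.14, and leaving out CrAT replicate 2 gave -0.80. The long noncoding gene Sox2ot surrounds Sox2 on the same strand and shares no exon bases with it in the table. The starburst amacrine genes Chat and Slc18a3 were counted 13, 0, 0 and 0 times and 2, 4, 0 and 1 times in the 4 libraries, CrAT first.

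Other identity factors and Notch targets were mostly at lower values in CrAT as well. Of 13 tested, 12 had a log2 fold change below 0, against 49.4% of all genes. Their median was -0.53 (-0.32 with MCS replicate 2 left out). Both CrAT libraries were below both MCS libraries in 9, against 16.6% of all genes. In edgeR 3 had an unadjusted p under 0.05, all lower in CrAT, against 2.87% of all genes. None passed there when adjusted, while 1 passed in DESeq2. That gene was Sox8, a relative of Sox9, at 39.9 and 23.3 CPM with CrAT, against 110.4 and 102 CPM with MCS. Its log2 fold change was -1.75 (SE 0.35), with an adjusted p of 1 in edgeR and 0.00988 in DESeq2. Nfia, an NFI factor, had 17.4 and 19.4 CPM against 73.9 and 38.7 CPM, and the homeobox gene Rax 66.0 and 50.7 CPM against 101 and 113 CPM. Pax6, which amacrine and ganglion cells also use, was the only one above 0, at 249.7 and 447 CPM against 313 and 270.4 CPM with overlapping groups.

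The remaining markers, Dkk3 and Crym, did not part by group. Dkk3 (ENSMUSG00000030772; chromosome 7, 111715224 to 111758264, minus strand), a secreted protein of the dickkopf family, was at 2752 and 2551 CPM with CrAT, against 4215 and 2600 CPM with MCS. As with Slc1a3 and Aqp4, MCS replicate 1 was the highest library. Its log2 fold change of -0.36 (SE 0.37; edgeR adjusted p = 1) was 0.03 without MCS replicate 1. Crym (ENSMUSG00000030905; chromosome 7, 119785603 to 119801334, minus strand), which encodes a thyroid hormone-binding protein, was at 721 and 595 CPM with CrAT, against 821 and 486 CPM with MCS. The MCS libraries enclosed the CrAT libraries, and the log2 fold change of 0.01 (SE 0.36; edgeR adjusted p = 1) turned to -0.04 when libraries were scaled by their totals only.

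**Figure D2:**
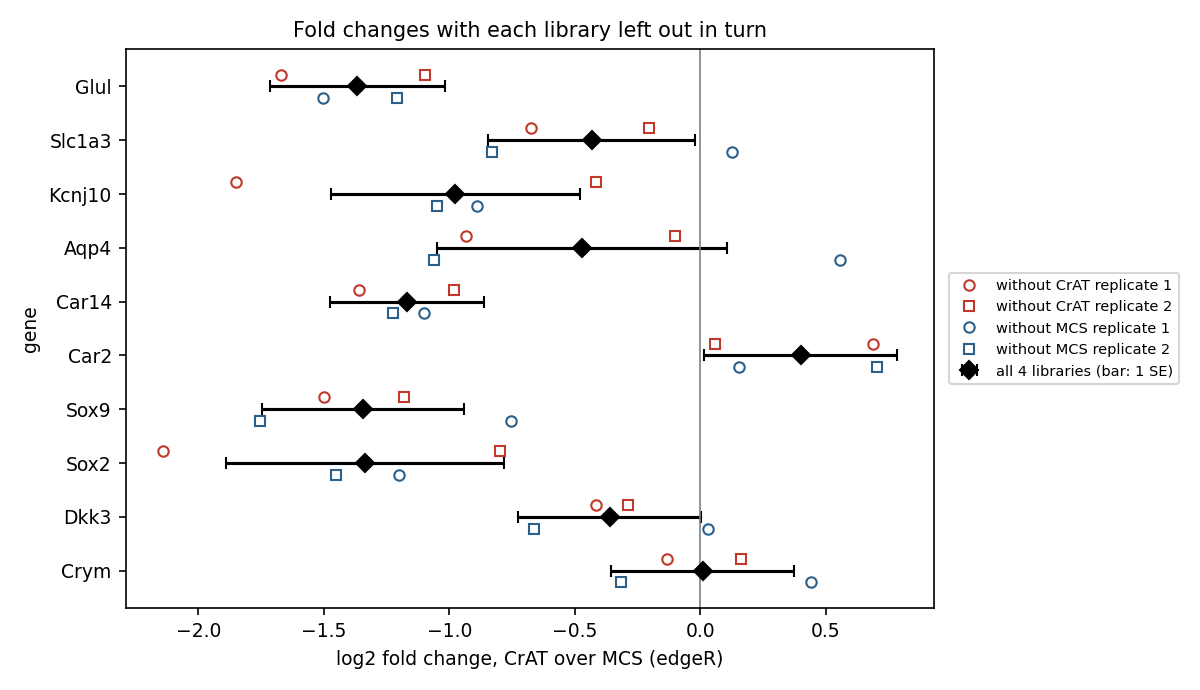
Log2 fold change of each gene, CrAT over MCS, from all 4 libraries (diamond, bar of 1 SE) and with each library left out (open symbols). Glul, Kcnj10, Car14, Sox9 and Sox2 stay below 0 in each of these 5 estimates, while Slc1a3, Aqp4 and Dkk3 cross 0 without MCS replicate 1.

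The 10 genes did not share 1 pattern over the libraries. MCS replicate 2 minus MCS replicate 1, the log2 CPM differed by -1.62 for Aqp4, -1.003 for Sox9, -0.96 for Slc1a3, -0.76 for Crym and -0.70 for Dkk3, but by only -0.25 for Sox2, -0.16 for Kcnj10 and -0.13 for Car14, and by 0.29 for Glul. Within CrAT the same difference was farthest from 0 for Kcnj10 with -1.41 and Sox2 with -1.29. Car2 was higher in the library numbered 2 in both groups, by 0.65 and 0.55. Replicate numbers carry no order, and these values only show which library was the lower.

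To set the 10 genes against the rest of the Mueller transcripts in the same library, each was divided by the geometric mean of the 24 other Mueller markers. That mean was itself lower in CrAT, at 8.42 and 7.98 log2 CPM against 8.96 and 8.49, a difference of -0.53. Their median log2 fold change of -0.52 ranged from -0.87 (CrAT replicate 1 left out) to -0.33 (CrAT replicate 2 left out). Of these markers 23 of 24 had a log2 fold change below 0, against 49.4% of all genes. The list was chosen with earlier results of these data known, so its counts are no independent support. Rlbp1, the retinaldehyde-binding protein of Mueller cells, was among the 23, at 666 and 343 CPM against 983 and 936 CPM. Relative to this mean, the log2 ratio differed between CrAT and MCS by -0.86 for Glul, -0.95 for Sox2, -0.74 for Sox9 and -0.65 for Car14, and in each the CrAT libraries were below both MCS libraries. Kcnj10 had a ratio difference of -0.61 with overlapping groups. Slc1a3, Aqp4 and Dkk3 had ratio differences of 0.16, 0.22 and 0.21 with overlapping groups. For Aqp4 this averages ratios that differed widely between libraries, 0.06 and -0.32 with CrAT against 0.23 and -0.92 with MCS. Crym was the only gene with both CrAT ratios above both MCS ratios, by 0.58, and Car2 had the highest difference, 0.92, with overlap. These ratios describe 4 libraries and were not tested. Among the 24 reference markers, 15 had both CrAT libraries below both MCS libraries, against 16.6% of all genes. In edgeR 4 had an unadjusted p under 0.05, all lower in CrAT, against 2.87% of all genes, and none passed when adjusted. The log2 fold change was -1.31 for Rdh10 and -1.05 for Apoe, and only Pdgfd was above 0, at 0.49. Lower values in CrAT were thus not particular to the 10 genes. Ratios to the mean were not computed for the reference markers themselves.

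**Figure D3:**
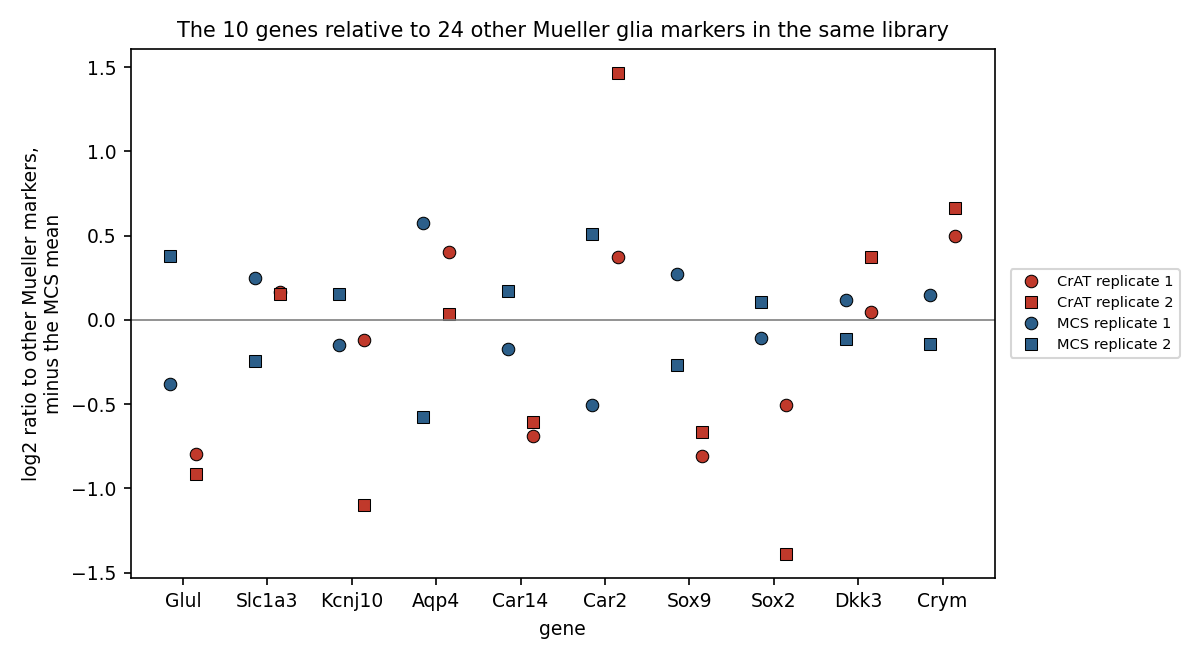
Log2 ratio of each gene to the geometric mean of 24 other Mueller glia markers in the same library, drawn relative to the mean of the MCS libraries. Glul, Car14, Sox9 and Sox2 lie lower in both CrAT libraries and Crym higher, and the groups overlap for Slc1a3, Kcnj10, Aqp4, Car2 and Dkk3.

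Astrocytes are the other glia of the retina that make Slc1a3, Aqp4, Sox9 and Sox2. Gfap was at 158 and 119 CPM with CrAT, against 252 and 209 CPM with MCS, while Pax2, which defines retinal astrocytes, was counted 1, 0, 1 and 0 times in the 4 libraries, CrAT first. Gfap is also induced in injured Mueller cells. Of 8 astrocyte markers tested 6 had a log2 fold change below 0, against 49.4% of all genes. Their median of -0.23 was 0.33 without MCS replicate 1. Their summed level was 534 and 322 CPM with CrAT, against 699 and 415 CPM with MCS, and their part in the values of the 10 genes was not tested. Markers of neurons had medians above 0, of 0.09 for 12 rod, 0.21 for 8 cone, 0.22 for 11 bipolar, 0.34 for 10 amacrine and 0.30 for 18 ganglion cell genes. None of these genes passed in edgeR or DESeq2. Each of these 5 medians changed sign when 1 library was left out, to -0.41, -0.07 and -0.24 for rod, cone and bipolar genes without CrAT replicate 1, and to -1.18 and -0.75 for amacrine and ganglion cell genes without CrAT replicate 2. Microglial C1qa was at 0.453 to 0.905 CPM, and 11 microglia and macrophage markers summed to 34.96 to 41.6 CPM, with a median log2 fold change of -0.02 that ran from -0.45 (MCS replicate 1 left out) to 0.21 (MCS replicate 2 left out).

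Of 12 endothelial and pericyte markers 7 were tested, and they differed among themselves. The endothelial gene Pecam1 was at 0.402 to 1.55 CPM, with both CrAT libraries above, and Cdh5 had 0 counts in all 4 libraries. The VEGF receptor gene Flt1 was at 79.2 and 51.0 CPM with CrAT, against 243.7 and 206 CPM with MCS. Its log2 fold change was -1.79 (SE 0.34), with an adjusted p of 1 in edgeR and 0.00324 in DESeq2. The other VEGF receptor gene Kdr was at 205 to 593.5 CPM with overlapping groups, and the pericyte gene Pdgfrb was at 33.9 and 26.7 CPM against 63.2 and 34.9 CPM. The list summed to 467 and 373.5 CPM with CrAT, against 907 and 455 CPM with MCS. Its median of -0.24 became 0.14 when MCS replicate 1 was left out, -0.50 for CrAT replicate 1 and -0.62 for MCS replicate 2, and its part in the values of the 10 genes was not tested.

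**Figure D4:**
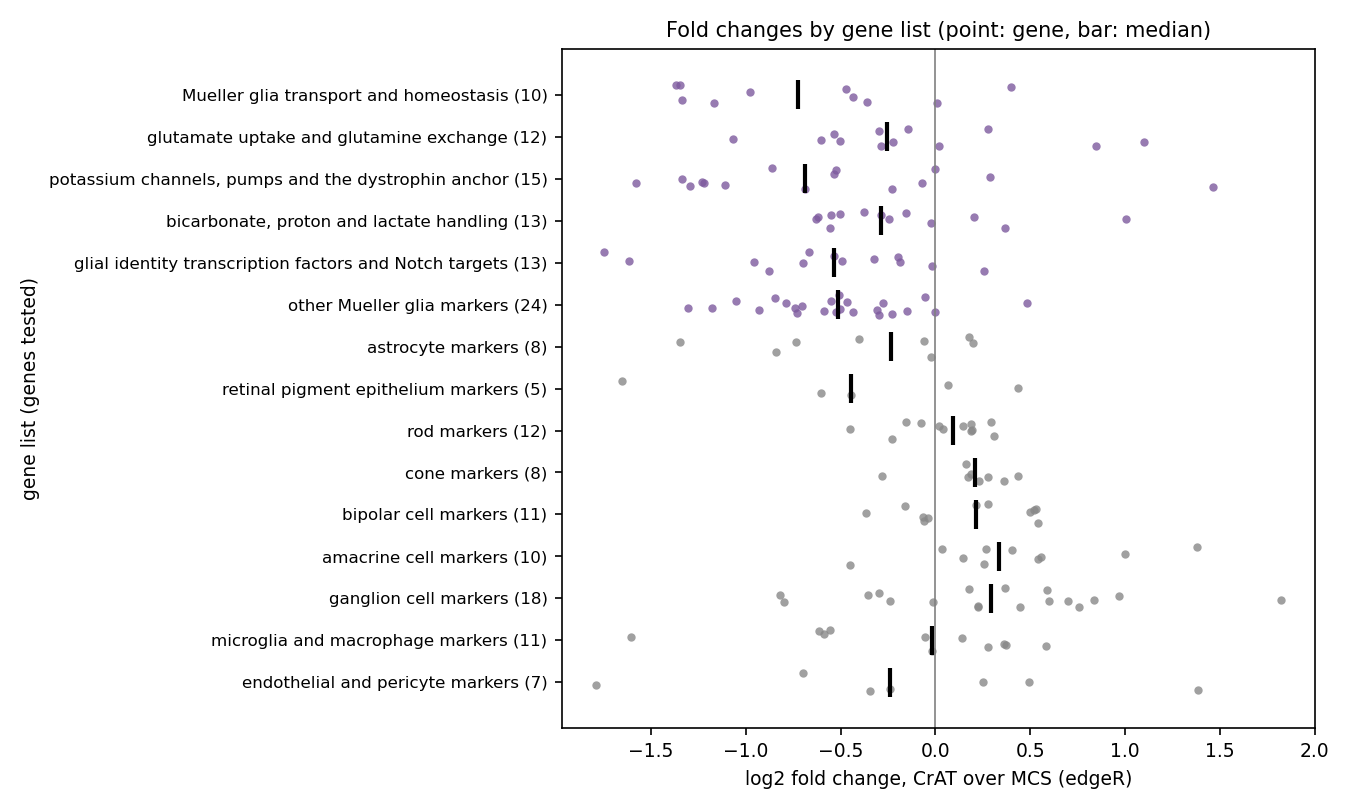
Log2 fold changes, CrAT over MCS, of the genes tested in each list, with a bar at the median. The 10 genes have a median of -0.73 and the 24 other Mueller glia markers of -0.52, while the medians of the 5 neuron lists lie between 0.09 and 0.34.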

How the data were processed

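Retinal cells sorted by fluorescence and labelled as ganglion cells gave 4 libraries, 2 per vector, with groups and replicate numbers taken from the sample titles. Per the labels' protocols, a SMART-seq kit for low input gave the cDNA. Kits of this kind do not mark strand. The submitters' processing notes list the aligner STAR 2.7.2b, GRCm38.p6 and mm10. The deposited counts carry the name featureCount, while the settings of that read counter are not given in what was at hand. Deposited by the authors were a count and an FPKM value per gene. The counts had been rounded, since 43.6% to 44.9% of the values rebuilt from FPKM were not whole within 0.02. Of 4 columns of other samples none was used.

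Genes were kept with edgeR's filterByExpr, leaving 19638, and scaled by TMM (factors 0.970 to 1.02). Groups were compared by the quasi-likelihood F test of edgeR 4.0.16 (R 4.3.3, robust, two-sided, group term only, leaving 2 degrees of freedom), adjusted by Benjamini-Hochberg across all genes, with a threshold of 0.05. Alternatives were DESeq2 1.42.0, limma 3.58.1 on log2(FPKM + 0.1), other scalings, no filter, a block and each library left out. The procedure was tested on simulated data. The genes and lists were chosen with earlier results of these data known. All 10 genes were named, and of each glial list up to 4 genes with the smallest p and 2 of the highest CPM, beside fixed defining markers of other cells. A few genes taken by this rule are left out here. Pax2, Rdh5, Best1, Cdh5, Flt1, Kdr, Pdgfrb, Sox2ot, Teddm2, Mir8114 and Aph1a lie outside that rule and were named after their values were seen. Promoter windows are RefSeq's on GRCm38.p6, and limits set by 0 counts (3 counts) cover counting error only, since amplified reads are not independent molecules.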

Additional observations from a re-analysis of the deposited data

How the results depend on the processing

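None of the 10 genes passed an adjusted p of 0.05 in edgeR, DESeq2 or limma under any alternative run. Glul, Kcnj10, Car14, Sox9 and Sox2 kept a negative log2 fold change, and Car2 a positive one, in all 10 alternatives. Over the fits that leave out a library, the log2 fold change ranged from -0.831 to 0.126 for Slc1a3, from -1.062 to 0.557 for Aqp4, from -0.664 to 0.031 for Dkk3 and from -0.316 to 0.439 for Crym. The positive values of Slc1a3, Aqp4 and Dkk3 came without MCS replicate 1. Crym also turned to -0.044 with library totals only, -0.00045 in limma on log2(FPKM + 0.1), and -0.134 when CrAT replicate 1 was left out and -0.316 when MCS replicate 2 was. The causes were not tested. Of all genes, 2 passed with no filter on low counts and 54 in the DESeq2 Wald test, against 0. The number of the 10 genes with a log2 fold change below 0 was 5 to 9 with single libraries left out, against 8. The number lower in CrAT with an unadjusted p under 0.05, a count added after the data were seen, was 5 with no filter, 5 in limma and 5 with the replicate block, against 3, and 0 to 5 with single libraries left out. The median of the 10 genes ranged from -1.15 to -0.35 over the latter. A library left alone in its group was assumed to vary like the other group. The replicate numbers are not said to mark a shared animal or day, and same-numbered libraries deviated together with a correlation of 0.39 across genes. With the replicate block 1922 genes against 815 had an unadjusted p under 0.05, none passed, and the smallest adjusted p of the 10 genes was 0.233. Depth limits Sox2 most, with 55 to 248 counts in a library.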
